A study of Mus musculus with 6 samples.

Results

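The genes described here encode the upstream proteins of the complement cascade and the proteins of blood coagulation and its control, most of which the liver makes and secretes. A list of 40 genes was used, 15 of complement and 25 of coagulation, and each was represented by its brightest probe set over the 6 arrays. Of the 40, 36 were matched by symbol (12 of complement and 24 of coagulation) among the 18029 genes measured. C3, C4b, Cfd and Cpb2 were not analysed here. C1s was matched as C1s1 and protein Z as Proz.

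RNA came from livers of C57BL/6 mice aged 16 weeks that had been fed a high fat diet for the last 8 weeks. The controls (genotype RECS1-flox, n = 3) carry floxed RECS1 alleles, and in the HKO mice (genotype RECS1-HKO, n = 3) RECS1, an older name of Tmbim1, is deleted in hepatocytes. Both groups had the same strain, age and diet. The sources used here give neither the Cre line behind the deletion nor the sex of the animals. Tmbim1 stood at 7.65 ± 0.08 in control and 7.13 ± 0.07 in HKO liver (log2 intensity, mean ± SD, n = 3 each), a difference of -0.52 ± 0.08 (SE; limma, Benjamini-Hochberg adjusted p = 0.026), and without any 1 array its adjusted p lay between 0.065 and 0.0967. Over all 18029 genes, 101 (0.56%) were higher and 81 (0.449%) lower in HKO liver at an adjusted p under 0.05.

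Complement is a chain of plasma proteases that tags surfaces for removal. The classical pathway starts when C1q with the proteases C1r and C1s binds antibody, the lectin pathway when mannose-binding lectins with the proteases MASP-1 and MASP-2 bind sugars, and both cut C4 and C2 to form an enzyme, the C3 convertase, while factor B does the same work in the alternative pathway. Coagulation is a second protease chain, begun by tissue factor with factor VII or by the contact proteins, which ends with thrombin turning fibrinogen into fibrin. Inhibitors such as antithrombin hold it back, and plasmin dissolves the clot. The chains meet at C1 inhibitor, which blocks proteases of both. Hepatocytes are the main source of most of these proteins, whereas factor VIII and the tissue factor pathway inhibitor come largely from endothelial cells and properdin from white blood cells.

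Promoter sequence is shown for 6 members. They are C1ra, which passed the test, the paired lectins Mbl1 and Mbl2, whose values had opposite signs, the neighbouring protease genes F11 and Klkb1, and the fibrinogen gene Fgb. Each run is the 250 bases before the gene's start from RefSeq (GRCm38.p6), written 5′ to 3′ along the gene's strand. In C1ra, F11, Klkb1 and Fgb capitals mark matches to 4 motifs searched on both strands, namely TTCNNNGAA (STAT), TTGCNNAA (C/EBP), GTTAAT (part of the HNF1 site) and CAAAGTCCA (HNF4). In Mbl1 and Mbl2 capitals mark the longest run of letters that both share.
C1ra, chr6:124512371-124512620, plus strand: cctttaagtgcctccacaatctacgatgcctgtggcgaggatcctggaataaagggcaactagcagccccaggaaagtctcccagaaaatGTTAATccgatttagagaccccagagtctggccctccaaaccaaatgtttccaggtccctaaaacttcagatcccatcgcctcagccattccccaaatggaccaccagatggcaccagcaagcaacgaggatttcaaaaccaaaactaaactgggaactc
Mbl1, chr14:41151206-41151455, plus strand: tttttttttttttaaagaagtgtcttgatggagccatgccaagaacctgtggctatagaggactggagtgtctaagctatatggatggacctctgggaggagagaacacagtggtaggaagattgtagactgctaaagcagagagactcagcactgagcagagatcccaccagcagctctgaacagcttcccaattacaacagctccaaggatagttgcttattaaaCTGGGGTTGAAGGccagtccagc
Mbl2, chr19:30232678-30232927, plus strand: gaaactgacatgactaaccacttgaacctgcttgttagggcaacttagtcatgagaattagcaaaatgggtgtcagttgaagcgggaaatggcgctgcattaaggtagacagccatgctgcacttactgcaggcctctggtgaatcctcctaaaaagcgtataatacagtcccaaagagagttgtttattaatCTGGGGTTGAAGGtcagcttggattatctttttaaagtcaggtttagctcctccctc
F11, chr8:45262032-45262281, minus strand: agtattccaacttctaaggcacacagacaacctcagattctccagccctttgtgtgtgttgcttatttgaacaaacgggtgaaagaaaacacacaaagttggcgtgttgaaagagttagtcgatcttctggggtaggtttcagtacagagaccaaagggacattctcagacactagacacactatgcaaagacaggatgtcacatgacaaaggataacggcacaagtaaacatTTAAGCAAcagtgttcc
Klkb1, chr8:45294836-45295085, minus strand: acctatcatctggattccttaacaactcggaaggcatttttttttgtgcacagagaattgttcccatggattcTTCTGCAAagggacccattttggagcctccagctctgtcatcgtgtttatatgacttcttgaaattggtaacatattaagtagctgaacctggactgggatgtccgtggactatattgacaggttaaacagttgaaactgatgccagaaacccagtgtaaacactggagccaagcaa
Fgb, chr3:83049864-83050113, minus strand: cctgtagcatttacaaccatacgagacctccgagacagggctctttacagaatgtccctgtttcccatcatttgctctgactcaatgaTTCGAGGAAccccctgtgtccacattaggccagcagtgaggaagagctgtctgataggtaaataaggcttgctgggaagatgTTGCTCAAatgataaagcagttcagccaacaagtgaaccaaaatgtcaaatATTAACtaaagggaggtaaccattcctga

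The shared run of the Mbl promoters is 13 bases long and begins 23 bases before the start of Mbl1 and 57 bases before that of Mbl2. With that run lined up, 23 of 30 bases around it match. Only 3 of 32851 promoters of this length hold the run along the gene's strand, among them those of Mbl1 and Mbl2. Fgb holds a STAT, a C/EBP and an HNF1 match, C1ra an HNF1 match 160 bases before its start, and F11 and Klkb1 a C/EBP match each, 17 and 177 bases before their starts. None of the marked matches overlap. Of the 28 members with a promoter in the table, 7 (25%) hold the C/EBP motif, 7 (25%) the HNF1 motif, 5 (17.9%) the STAT motif and 0 the HNF4 motif. Among all 32851 promoters the shares are 9.56%, 6.43%, 7.02% and 0.384%. These shares count every promoter, whereas a member counts once, by its first promoter. The 28 members are 7 of complement and 21 of coagulation. The C/EBP motif was found in 1 and 6 of these, the HNF1 motif in 3 and 4, and the STAT motif in 1 and 4. These are letter matches, and binding was not measured.

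Complement genes stood lower in HKO liver by small amounts, and coagulation genes stood closer to the control level. C1ra, the protease that starts the classical pathway, fell to 69.1% of its control level, and no other member passed the test over all genes (1 of 36 lower and 0 of 36 higher, against 0.449% and 0.56% of all genes). Of the 12 complement genes, 10 had negative differences, with a median of -0.22, and of the 24 coagulation genes 16 did, with a median of -0.058. The median over all genes was -0.0041, with 51.2% negative, and over the 9014 genes brighter than the median gene it was -0.013, with 53.4% negative. Over the 1239 genes at least as bright as the members' lower quartile it was 0.002, with 49.6% negative, and 16 of these passed lower and 16 higher. Members are not replicates, so neither the gap between the medians of the lists nor their gap to the rest was tested.

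All 3 HKO arrays lay below all 3 control arrays for 8 of 12 complement genes and 8 of 24 coagulation genes. The same held for 10.1% of all genes, for 14.4% of the genes above the median and for 17.6% of the genes at least as bright as the members' lower quartile (8.78), the nearest background for these bright genes. All HKO arrays lay above the controls for 1 gene of each list, Mbl2 and F5, against 8.58%, 11% and 18.5% in those backgrounds. The unadjusted p was under 0.05 for 12 members with a lower value and 1 with a higher one, against 6.96% and 6.03% of all genes. Of the 1239 genes at least as bright as the members' lower quartile, 141 had such a p with a lower value and 145 with a higher one. With 3 arrays a group the smallest p of an exact two-sided permutation test is 0.1, and the tests are therefore those of the fit across all genes.

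**Figure D1:**
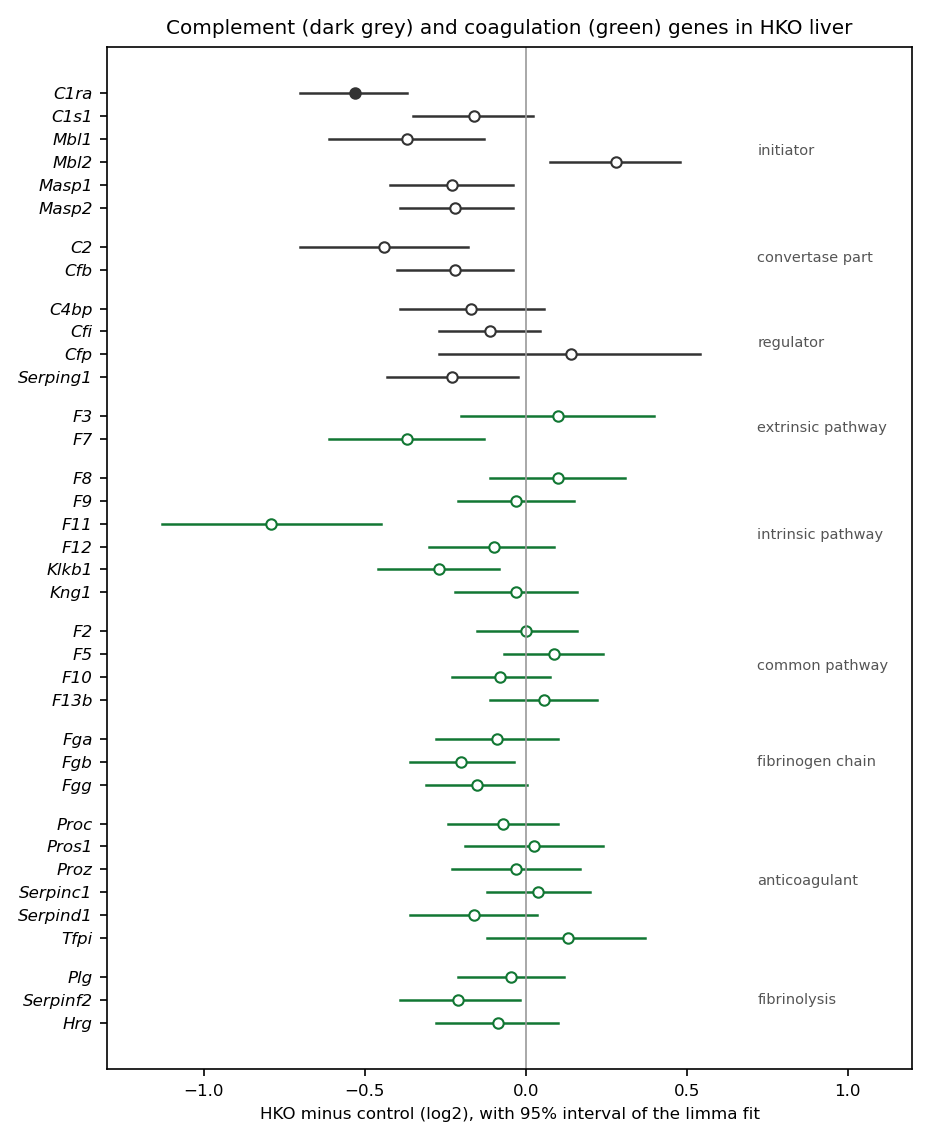
HKO minus control in log2 units (x axis) for the 36 members, grouped by role, with the 95% interval of the limma fit. Filled points passed an adjusted p of 0.05. C1ra is the only filled point, F11 has the largest difference (-0.79), and Mbl2 (0.28) lies on the opposite side of 0 from the other lectin pathway genes.

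Complement genes had lower medians on each HKO array. Relative to each gene's control mean, the 12 complement genes had a median of -0.23 on HKO 1, -0.18 on HKO 2 and -0.22 on HKO 3, and between -0.032 and 0.051 on the control arrays. For the 24 coagulation genes the HKO medians were -0.059, -0.058 and -0.066, and the control medians lay between -0.033 and 0.033. The control values lie around 0 by construction, since they are differences from the control mean.

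**Figure D2:**
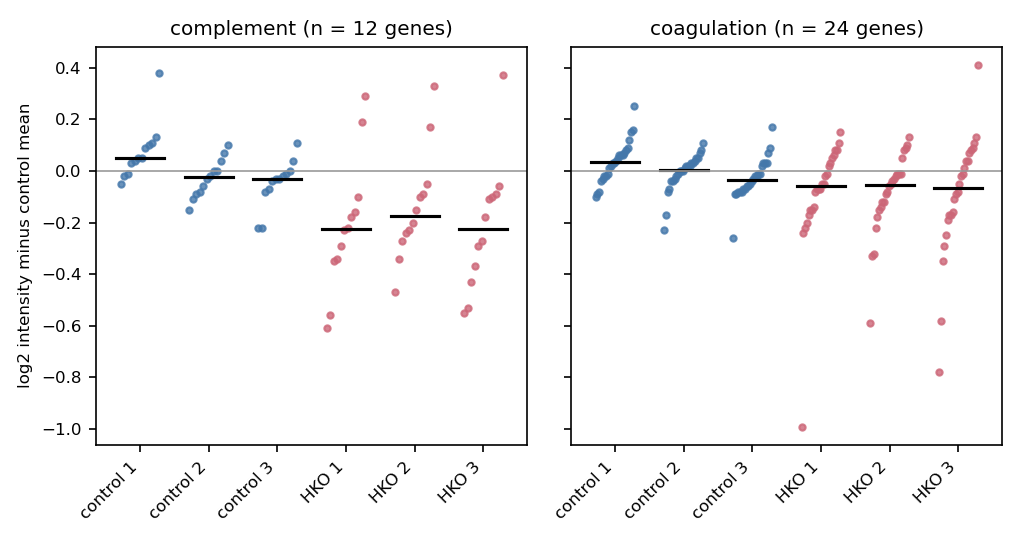
Log2 intensity minus the gene's control mean (y axis) on each of the 6 arrays for 12 complement and 24 coagulation genes. Points are genes and black lines medians, which lie between -0.23 and -0.18 on HKO arrays for complement and between -0.066 and -0.058 for coagulation.

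Among the initiators of complement, C1ra had log2 intensities of 9.35, 9.41 and 9.34 in control and 8.76, 8.90 and 8.84 in HKO livers. The groups did not overlap, and the gap between them was several times the spread within either. C1ra fell by 0.53 ± 0.07 (SE) on the log2 scale, with a 95% interval from -0.70 to -0.37 (limma, adjusted p = 0.0179). The call held in 8 of 9 other fits of all arrays. Of the 6 fits without 1 array, it held without HKO 2 (adjusted p = 0.0309) and was lost without control 1, control 2, control 3, HKO 1 or HKO 3, with values up to 0.0855. The sources used here do not say whether the C1ra probe set also binds transcripts of its close copy C1rb.

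C1s1 encodes C1s, the protease that C1r activates, and is the gene next to C1ra on the chromosome. Its values were 10.15, 10.10 and 10.03 in control and 9.92, 9.83 and 10.04 in HKO livers. HKO 3 reached into the control range, and the difference was -0.16 ± 0.08 (adjusted p = 0.448). The C1s1 probe set, like that of Hrg, carries the suffix that Affymetrix gives to probe sets shared by several transcripts.

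The lectins of the lectin pathway had opposite signs. Mbl1, mannose-binding lectin A, had 10.38, 10.21 and 10.29 in control against 9.94, 10.09 and 9.74 in HKO livers. Mbl2, mannose-binding lectin C, had 10.82, 10.72 and 10.94 in control against 11.12, 11 and 11.20 in HKO livers. In neither gene did the groups overlap. The difference was -0.37 ± 0.10 for Mbl1, with a 95% interval from -0.61 to -0.13 (adjusted p = 0.187), and 0.28 ± 0.09 for Mbl2, from 0.074 to 0.48 (0.242), so neither passed over all genes. Their signs stayed opposite without any 1 array, with Mbl1 between -0.46 and -0.28 and Mbl2 between 0.23 and 0.33.

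Masp1 and Masp2, the proteases that ride on these lectins, stood at -0.23 ± 0.08 (adjusted p = 0.293) and -0.22 ± 0.08 (0.284), both without overlap of the groups. Their probe sets did not all give the same value. The 3 brighter probe sets of Masp1 stood at -0.23, -0.21 and -0.12, and 2 dim ones at 0.025 and 0.046. Masp2 has another probe set, also above the median gene, at 0.065, so its lower value rests on 1 of 2 probe sets. By the median of the probe sets of each gene, Masp2 stood at -0.076 and Masp1 at -0.12.

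C2, the classical and lectin pathway component whose fragment carries the protease of the C3 convertase, was measured by 3 probe sets of like brightness. The brightest had 8.09, 8.06 and 7.74 in control and 7.40, 7.62 and 7.53 in HKO livers, a difference of -0.44 ± 0.11 (adjusted p = 0.155) that did not pass. Control 3 lay nearest to the HKO values there. The other probe sets stood at -0.58 ± 0.09 and -0.51 ± 0.09, and both passed when all 34325 probe sets were tested on their own (adjusted p = 0.0307 and 0.0493). All 3 had no overlap between the groups. The brightest and the one at -0.58 carry the Affymetrix suffix for possible cross-hybridisation, and the one at -0.51 does not. Of the 51 probe sets of the 36 members, 3 passed in that test, 1 of C1ra and 2 of C2, each lower, against 0.341% lower among all probe sets. C2 also passed over genes by the median of its probe sets (-0.49, adjusted p = 0.0339) and with the probe set chosen by its mean on the control arrays (-0.58, 0.0259). The latter choice favours probe sets that are high in control and so leans toward lower differences. It moved C2 to the probe set at -0.58, whose control mean was 7.99 against 7.96 for the brightest.

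Cfb encodes factor B, which stands in for C2 in the alternative pathway and is the gene next to it. Its values were 9.85, 9.72 and 9.66 in control and 9.51, 9.50 and 9.56 in HKO livers. The groups did not overlap, but the difference of -0.22 ± 0.08 did not pass (adjusted p = 0.288).

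**Figure D3:**
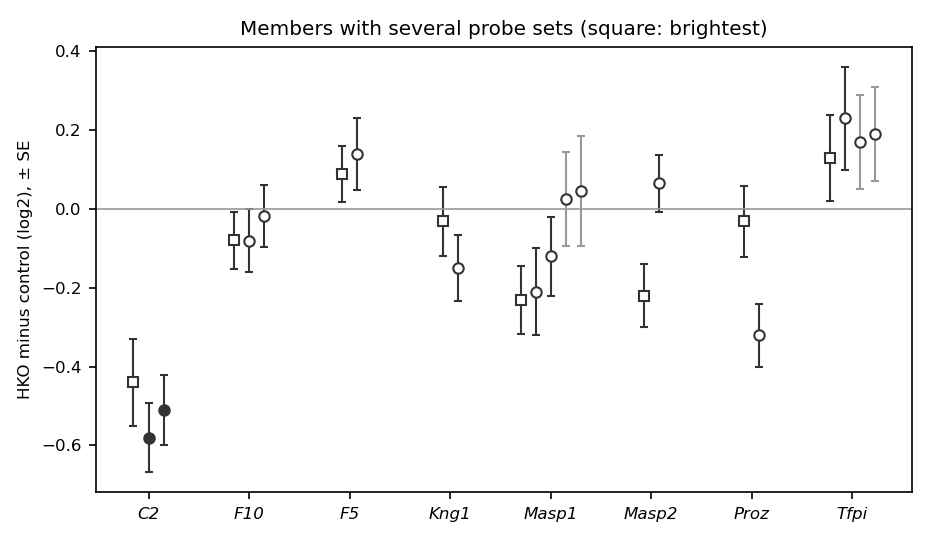
HKO minus control (log2, ± SE, y axis) for every probe set of the 8 members that have several. Squares mark the brightest probe set, filled points passed an adjusted p of 0.05 over all probe sets, and grey bars mark probe sets below the median gene. The 3 probe sets of C2 agree, while those of Masp2 lie on both sides of 0.

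No regulator of complement passed the test. Serping1, C1 inhibitor, had 11.44, 11.40 and 11.36 in control and 11.18, 11.31 and 11.03 in HKO livers, with no overlap and a difference of -0.23 ± 0.09 (adjusted p = 0.329). C4bp, which helps to take the classical convertase apart, had 10.81, 10.65 and 10.68 against 10.37, 10.66 and 10.61, groups that overlapped, with a difference of -0.17 ± 0.10 (0.526), which was -0.079 without HKO 1. Cfi, the protease that cuts C3b and C4b, stood at -0.11 ± 0.07 (0.549). Cfp, properdin, which stabilises the alternative convertase, stood at 0.14 ± 0.17 (0.796), with control values spread from 6.37 to 6.97, and lay between 0.023 and 0.33 without any 1 array.

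In the extrinsic pathway of coagulation, F7, the short-lived protease that tissue factor activates, had 8.99, 9.01 and 8.88 in control and 8.74, 8.64 and 8.38 in HKO livers. The groups did not overlap, and HKO 3 was lowest. The difference was -0.37 ± 0.10, with a 95% interval from -0.61 to -0.13 (adjusted p = 0.188), and lay between -0.45 and -0.27 without any 1 array. F3, tissue factor itself, was dim, with 2.94, 3.12 and 3.07 in control and 2.96, 3.03 and 3.45 in HKO livers, all below the median gene (4.69). Its difference was 0.10 ± 0.13 (0.79), and -0.046 without HKO 3.

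F11, the protease factor XI of the intrinsic pathway, had the largest difference of the 36 members. Its values were 7.47, 7.23 and 6.96 in control and 6.23, 6.63 and 6.44 in HKO livers, so the groups did not overlap, but both were spread out. The difference was -0.79 ± 0.15, or 57.8% of the control level, with a 95% interval from -1.13 to -0.45, and it did not pass over all genes (limma, adjusted p = 0.0578). F11 passed in 5 of 9 other fits of all arrays (adjusted p from 0.0357 to 0.112) and in none of the 6 without 1 array (0.0539 to 0.193), where its difference stayed between -0.92 and -0.66.

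Klkb1, the gene next to F11, encodes prekallikrein, a contact protein of related sequence. It had 9.52, 9.57 and 9.49 in control and 9.38, 9.20 and 9.18 in HKO livers, with no overlap and a difference of -0.27 ± 0.08 (adjusted p = 0.215). The other contact and intrinsic proteins stood near 0. F12, which starts the contact pathway, was at -0.10 ± 0.08 (0.657), Kng1, the kininogen that releases bradykinin, at -0.031 ± 0.084 (0.914), and F9, the vitamin K-dependent protease missing in haemophilia B, at -0.029 ± 0.078 (0.911). F8, its cofactor, stood at 0.10 ± 0.09 (0.703), and at 0.016 without control 2.

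**Figure D4:**
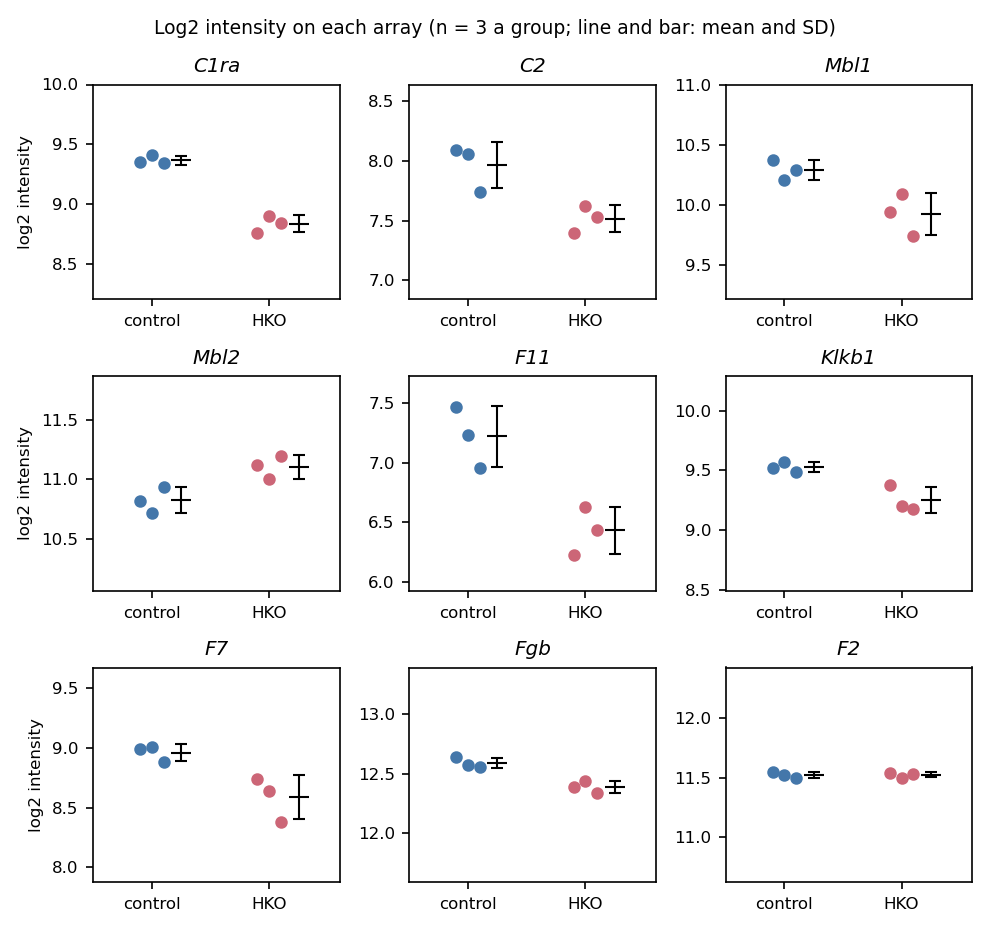
Log2 intensity (y axis, each panel spanning the same log2 range) of 9 members in 3 control and 3 HKO livers, with mean and SD. HKO points lie below all control points for C1ra, C2, Mbl1, F11, Klkb1, F7 and Fgb and above them for Mbl2, while those of F2 coincide with the control points.

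The common pathway was close to the control level. F2, prothrombin, had 11.55, 11.52 and 11.50 in control and 11.54, 11.50 and 11.53 in HKO livers. The arrays of both groups interleave, and the difference had a 95% interval from -0.15 to 0.16. F5, the cofactor of prothrombin activation, had 10.52, 10.46 and 10.53 against 10.58, 10.59 and 10.61, with no overlap and a difference of 0.089 ± 0.068 (adjusted p = 0.64). F10, the protease that cuts prothrombin, had 10.09, 10.08 and 10.07 against 10.01, 9.96 and 10.03, with no overlap and a difference of -0.079 ± 0.067 (0.684). F13b, the carrier subunit of the fibrin cross-linking factor, stood at 0.058 ± 0.072 (0.787).

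The 3 fibrinogen chains, whose genes lie side by side, all had negative values. Fgb, the beta chain, had 12.64, 12.57 and 12.56 in control and 12.39, 12.44 and 12.34 in HKO livers, a difference of -0.20 ± 0.07 (adjusted p = 0.288). Fgg, the gamma chain, had 12.49, 12.54 and 12.50 against 12.34, 12.39 and 12.34, a difference of -0.15 ± 0.07 (0.4). Both had no overlap between the groups. Fga, the alpha chain, stood at -0.089 ± 0.082 (0.705), with overlapping groups.

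Anticoagulants did not pass the test. Serpinc1, antithrombin, stood at 0.039 ± 0.069 (adjusted p = 0.855), Proc, protein C, at -0.07 ± 0.07 (0.741) and its cofactor Pros1, protein S, at 0.025 ± 0.092 (0.941). Serpind1, heparin cofactor II, had 10.45, 10.23 and 10.21 in control and 10.16, 10.12 and 10.11 in HKO livers, with no overlap and a difference of -0.16 ± 0.09 (0.484), which was -0.085 without control 1, the highest array. Tfpi, the inhibitor of tissue factor with factor VII, had 5.06, 4.77 and 5.17 against 5.15, 5.10 and 5.13, overlapping groups with a difference of 0.13 ± 0.11 (0.684), which was 0.0096 without control 2, the lowest array. Its other 3 probe sets stood between 0.17 and 0.23, with control 2 again the lowest control array. Proz, protein Z, stood at -0.031 ± 0.087 (0.919) by its brightest probe set and at -0.32 ± 0.08 by its other one (adjusted p = 0.164 over all probe sets), which had 7.24, 7.27 and 7.21 against 6.97, 6.82 and 6.97.

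In fibrinolysis, Serpinf2, the plasmin inhibitor alpha-2-antiplasmin, had 10.21, 10.30 and 10.18 in control and 9.99, 10.14 and 9.94 in HKO livers, with no overlap and a difference of -0.21 ± 0.08 (adjusted p = 0.343). Hrg, a histidine-rich plasma protein that binds heparin and plasminogen, had 11.71, 11.56 and 11.51 against 11.54, 11.54 and 11.43, overlapping groups with a difference of -0.086 ± 0.083 (0.718). Plg, plasminogen, stood at -0.047 ± 0.070 (0.828). For 30 of the 36 members (8 of 12 complement and 22 of 24 coagulation genes) the 95% interval of the difference lay within 0.5 log2 units of 0 on both sides, so larger changes of these genes lie outside their intervals. The same held for 15689 of all 18029 genes and for 1003 of the 1239 genes at least as bright as the members' lower quartile.

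Several members are immediate neighbours in gene order, with 0 protein-coding genes between them. The differences of some neighbours were unlike in size. C1ra (-0.53) lies next to C1s1 (-0.16), C2 (-0.44) next to Cfb (-0.22), and F11 (-0.79) next to Klkb1 (-0.27). F7 (-0.37), F10 (-0.079) and Proz (-0.031) form a row of 3, in which F10 and Proz stood close to each other. The other probe set of Proz stood at -0.32, nearer to F7. The fibrinogen genes Fgg (-0.15), Fga (-0.089) and Fgb (-0.2) form another row of 3, with values of like size. The difference between neighbours was not tested.

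Other genes of these pathways were read from the same fit. Of 14 measured upstream complement genes and receptors outside the list, none passed (10 negative, median -0.03), and of 22 of coagulation, fibrinolysis and the vitamin K cycle none passed either (10 negative, median 0.024). Without control 2 these medians were -0.10, with 13 negative, and -0.042, with 13 negative. At an unadjusted p under 0.05 there were 2 lower and 1 higher in the first group and 4 lower and 4 higher in the second, against 6.96% lower and 6.03% higher among all genes. C1qa, C1qb and C1qc, the chains of C1q, which macrophages make, stood at -0.025, 0.061 and 0.04. Cd55, a membrane protein that breaks up convertases, stood at 0.34 ± 0.08 (limma, adjusted p = 0.0967). By the median of its probe sets Cd55 stood at 0.27 (limma, adjusted p = 0.633). Fcna, ficolin A, another lectin pathway sensor, stood at -0.32 ± 0.11 (0.263) and Cfhr2, related to factor H, at -0.22 ± 0.09 (0.361). Cd46, dimmer than the median gene, stood at -0.16 ± 0.12 (0.619). In the second group Plaur, the urokinase receptor, stood at 0.31 ± 0.07 (0.0984) and A2m at -0.27 ± 0.07 (0.175), both dimmer than the median gene. Fgl1, a fibrinogen-like liver protein, stood at -0.72 ± 0.17 (0.132) and Anxa2, a membrane protein that binds plasminogen, at 0.89 ± 0.25 (0.185). Fgl1 passed in 0 of 9 other fits of all arrays and in 1 of 6 without 1 array. In those 6 its limma adjusted p ran from 0.0171 (without HKO 2) to 0.328.

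Markers of the cells that make these proteins were set beside the members. Of 11 hepatocyte markers none passed, their median was 0.057, and their summed linear intensity ran from 66700 to 68200 in control and from 65200 to 70200 in HKO livers. Most of that sum is Alb, Ttr, Apoa1, Apoa2 and Serpina1c. Alb was the highest value on every array (13.55 to 13.64), which limits what the sum can show. Of 12 Kupffer cell and macrophage markers none passed (median 0.0072, and 0.22 without control 1; sums of 2630 to 3890 and 2980 to 3250). Their differences went both ways, 6 negative and 6 positive, from -0.48 to 1.03. Among them Cd163, a haemoglobin scavenger receptor, had no overlap between the groups, with a difference of -0.48 ± 0.09 (limma, adjusted p = 0.05, just outside the threshold), and passed in 7 of 9 other fits of all arrays and in 0 of the 6 without 1 array. None passed of 12 endothelial (median -0.06, 1390 to 1580 and 1330 to 1520), 10 stellate cell and fibroblast (-0.023, 1950 to 2420 and 1950 to 2680), 7 neutrophil (-0.017, 115 to 240 and 104 to 132) and 6 platelet markers (0.029, 129 to 138 and 126 to 136). Of 6 adipocyte markers (median 0.091), 1 passed, and their sums ran from 6950 to 7330 in control and from 7660 to 8390 in HKO livers, without overlap. That 1 was Plin4, a lipid droplet protein, higher by 1.31 ± 0.23 (limma, adjusted p = 0.0457), which passed in 6 of 9 other fits of all arrays and in 1 of 6 without 1 array. Cidec, another lipid droplet protein, stood at 1.71 ± 0.40 (0.115) and Car3, a carbonic anhydrase, at 0.14 ± 0.07 (0.492), both without overlap. Cidec passed in 0 of 9 other fits of all arrays and in 1 of 6 without 1 array. In those 6 its limma adjusted p ran from 0.00355 (without HKO 2) to 0.307. Adipoq and Lep, the defining adipokines, lay below the median gene on all arrays. The adipocyte sums are almost wholly Car3, with a mean log2 intensity of 12.79 in control and 12.93 in HKO livers, against 5.75 and 7.06 for Plin4. Their lack of overlap is therefore that of Car3 and not of the list. The part of these cell types in the members' values was not tested. In whole liver, fewer cells of a type and less RNA per cell cannot be told apart.

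Acute phase genes, which hepatocytes switch on together with C3 and fibrinogen in inflammation, were read beside the complement genes. Of 20, none passed and 17 had negative values, with a median of -0.30, but without control 1 the median was -0.075, with 14 negative. Their summed linear intensity ran from 30800 to 39600 in control and from 28500 to 29700 in HKO livers, without overlap. Control 1 was the highest array for several of them, with Saa1 at 10.92, 9.84 and 8.97 in control and 8.05, 8.37 and 8.97 in HKO livers. Without control 1 the median of the complement genes went from -0.22 to -0.18. The part of the acute phase level in the complement values was not tested.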

How the data were processed

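RNA of 6 livers was hybridised to 1 Affymetrix array each. The deposited table gives log2 intensities of 38208 probe sets, which the authors computed by RMA according to the submitters' processing notes. Those notes list limma too, with no version or setting. RMA brings arrays to a common distribution and draws dim probe sets toward a floor, which shrinks their differences. No 2 arrays were identical, and their small number limits the precision.

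The platform annotation gave 34325 probe sets 1 symbol, and these were kept, without 13 controls, 62 with several symbols and 3808 unnamed here. They stand for 18029 genes, each read from the probe set that was brightest on average. limma 3.58.1 (R 4.3.3, lmFit and eBayes) tested HKO minus control on both sides with no covariate, and p-values were adjusted by Benjamini-Hochberg across the 18029 genes, with calls at 0.05. The steps were tested on simulated data.

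Members and lists were chosen with earlier results of these data known. All members are described. Values on every array are given for those past the threshold, those without overlap and at least 0.5 log2 units apart, and 1 or 2 more of each role with the lowest p, with C1s1, F2, the second Proz probe set and the acute phase gene Saa1 added after their values were seen. The other pathway genes named are the 4 of each list with the lowest p, with C1q, Cd163, Cidec and Car3 added likewise. The labels call the 3 samples of a genotype biological samples. Promoters were searched by exact letters in RefSeq sequence. The alternatives tried are listed with their effect in the closing section.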

Additional observations from a re-analysis of the deposited data

How the results depend on the processing

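Refits used quantile normalization, equal array medians, genes above the median only, other rules for probe sets, each probe set tested, trend and robust options, array weights, a replicate block, a threshold of 0.1, and each array left out. C1ra kept its direction in all 15, between -0.57 and -0.50. The count of complement members past the threshold, 1 in the comparison itself, was 2 by the median of the probe sets and with probe sets chosen on control arrays. The latter choice leans toward lower differences. With the replicate block the count was 0, all genes gave 125 and C1ra had an adjusted p of 0.0539. Correlations of same-numbered deviations were -0.094, 0.069 and 0.11. These show no sign that the numbers pair the samples, but with 3 arrays a group they cannot exclude it. The coagulation count, 0, was 1 (F11) with equal array medians, with genes above the median only, by the median of the probe sets, with trend and robust options, with array weights, and at a threshold of 0.1, where all genes gave 344 calls. The count of other pathway genes, 0, was 1 with genes above the median only (Cd55) and 1 by the median of the probe sets (Anxa2). Without 1 array the counts lay between 78 and 161 for all genes, 0 and 1 for complement, and 0 and 2 for other pathway genes (Fgl1 and Gas6 without HKO 2, F2r without HKO 3). The complement median was -0.17 by the median of the probe sets and -0.22 to -0.18 without 1 array. The coagulation median, -0.058, was -0.10 after quantile normalization, -0.083 by the median of the probe sets and -0.079 to -0.035 without 1 array. Values near 0 changed sign: F2 stood at -0.02 after quantile normalization and between -0.012 and 0.015 without 1 array, and the same ranges were -0.046 to 0.20 for F3, -0.074 to 0.0088 for F9, -0.079 to 0.024 for Kng1, -0.015 to 0.10 for Pros1 and -0.087 to 0.03 for Proz. The other members kept their sign. The medians without 1 array of the cell type, acute phase, transcription factor and other pathway lists were added after the data were seen. The cause of these changes was not tested, and the 3 arrays a group limit what small differences can show.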

Other observations

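Transcription factors that set the hepatocyte programme were read from the same fit. Of 13 measured, 7 had negative values, with a median of -0.029 (between -0.19 and -0.032 without 1 array), and 1 passed. It was Foxa3, a forkhead factor of the liver, which was lower, with 8.15, 8.02 and 7.89 in control and 7.38, 7.25 and 6.96 in HKO livers, groups that did not overlap. Its difference was -0.82 ± 0.12 (limma, adjusted p = 0.0257), and it passed in 9 of 9 other fits of all arrays and in 2 of the 6 without 1 array, the adjusted p there lying between 0.047 and 0.0999. Its relative Foxa1 stood at -0.60 ± 0.15 (0.144) and Foxa2 at -0.40 ± 0.18 (0.409). Hnf4a, a nuclear receptor of hepatocytes, stood at -0.28 ± 0.12 (0.37) and Stat3, which carries the interleukin-6 signal, at -0.32 ± 0.12 (0.33). Cebpd, an inflammation-induced factor, stood at 0.39 ± 0.16 (0.346). Cebpa stood at 0.0014 ± 0.081 (0.997) and Cebpb at -0.029 ± 0.14 (0.956), within the spread of the arrays. The relation of these values to the complement and coagulation genes was not tested.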
